A study of Homo sapiens with 8 samples.

Results

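Adenylyl cyclases, which make cyclic AMP from ATP, and cyclic AMP phosphodiesterases, which break it down, were followed through RNA levels in 10 genes. The cyclases were ADCY3, ADCY4, ADCY6, ADCY7 and ADCY9, and the phosphodiesterases were PDE4A, PDE4B, PDE4D, PDE7A and PDE8A. The 10 genes were chosen by symbol from a table of 16153 genes, with earlier results of this table known, and all 10 passed the filter on low values. The lower level of ADCY4 in flight was among those earlier results, so its differences from the ground are given as a description with no test of their own. Counts of calls over all genes include ADCY4, and a call of it there is no new support.

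The cells were HMEC-1, an established endothelial line from small vessels of human skin, immortalised by the large T antigen of a virus and grown on gelatin-coated coverslips in medium with serum, hydrocortisone and EGF. The 3 space_microg libraries came from cells kept weightless on the International Space Station, and the 2 space_1g libraries from cells that shared this flight and incubator but turned on its centrifuge at 1 g. The 3 ground libraries came from cells kept in a facility in the home laboratory, with activation and media changes at the same times. All groups are 1 line, and the labels leave unsaid whether replicates were separate cultures. The p-values therefore rest on the spread among these 8 libraries alone, and that spread may be technical. Values are the deposited CPM, read counts divided by library size and scaled between libraries. Means are given ± SD, over n = 3 libraries in space_microg, n = 2 in space_1g and n = 3 on the ground.

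Cyclic AMP is made at the membrane when receptors coupled to the stimulatory G protein Gs switch on a cyclase, and Gi-coupled receptors hold cyclases back. It acts through protein kinase A, which phosphorylates the transcription factor CREB among many targets, and through EPAC, which activates the small GTPase RAP1. In endothelium, cyclic AMP is known for tightening cell junctions, and phosphodiesterases shape where in the cell it rises.

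The label was checked against 14 endothelial markers, all of which were measured, with summed levels of 1502 to 2322 CPM in space_microg, 1703 to 1915 CPM in space_1g and 2286 to 2650 CPM in ground libraries. None of 6 epithelial and none of 5 erythroid and platelet markers was in the table, and the leukocyte list was measured through CD14 alone, at 1.04 to 2.88 CPM. Fibroblast markers (3 of 6 measured) summed to 101 to 276 CPM, and smooth muscle and pericyte markers (5 of 7) to 147 to 372 CPM. A library held 24248964 to 35388757 reads over the genes of the table. The libraries space_1g replicate 1 and ground replicate 3 stood apart from the other 6 libraries on the first principal component, which held 61.9% of the variance. In them the summed level of 20 p53 target genes was 9132 and 7704 CPM, against 3101 to 4507 CPM in the other 4 flight libraries and 2170 and 2180 CPM in the other 2 ground libraries. The summed level of 20 mitosis genes was 2631 and 3059 CPM, against 5630 to 6745 CPM in the other 6. That of 17 measured interferon genes was 4070 and 4870 CPM, against 418 to 1805 CPM in the other 6.

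Promoter windows of RefSeq (GRCh38.p14), running from 250 bases before to 50 after a start, were found for 7 of the 10 genes, with 26 windows in all. ADCY6, ADCY9 and PDE7A had no entry. The cyclases ADCY4 and ADCY7 are shown because their levels differed most between flight and ground, and the first PDE4A window because it holds the palindrome to which CREB binds. Capitals mark TGACG, an arm of that palindrome, and CCAAT, on either strand, so that they also read CGTCA and ATTGG.
ADCY4 chr14:24335022-24335321 (minus strand): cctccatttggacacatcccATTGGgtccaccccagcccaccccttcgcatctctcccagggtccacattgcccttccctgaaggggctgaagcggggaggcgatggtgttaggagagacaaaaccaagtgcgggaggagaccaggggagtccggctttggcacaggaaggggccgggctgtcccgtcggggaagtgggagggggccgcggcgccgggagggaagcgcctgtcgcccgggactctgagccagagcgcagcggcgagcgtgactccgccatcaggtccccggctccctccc
ADCY7 chr16:50266301-50266600 (plus strand): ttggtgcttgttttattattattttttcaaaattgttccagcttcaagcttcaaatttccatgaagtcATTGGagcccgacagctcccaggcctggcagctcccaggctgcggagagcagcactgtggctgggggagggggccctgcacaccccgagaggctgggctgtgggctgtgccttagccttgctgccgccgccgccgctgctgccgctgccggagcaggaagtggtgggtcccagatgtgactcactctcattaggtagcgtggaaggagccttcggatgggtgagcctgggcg
PDE4A chr19:10416523-10416822 (plus strand): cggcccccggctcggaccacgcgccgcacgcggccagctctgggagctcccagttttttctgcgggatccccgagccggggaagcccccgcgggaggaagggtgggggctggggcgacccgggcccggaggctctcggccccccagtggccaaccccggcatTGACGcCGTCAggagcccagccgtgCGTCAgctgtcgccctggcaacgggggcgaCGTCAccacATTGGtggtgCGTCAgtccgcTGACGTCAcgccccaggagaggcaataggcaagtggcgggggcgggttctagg
The whole palindrome TGACGTCA lay in 1 of the 26 windows, that of PDE4A, and in 1.85% of 35116 promoter windows of the same length. The shorter TGACG occurred 7 times in this PDE4A window, counting both arms of the palindrome. It lay in 3 of the 26 windows and in 24.6% of all windows. CCAAT lay in 7 of the 26 windows and in 34.6% of all. A match describes the letters only.

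Of the cyclases, 4 of 5 lay lower in every flight library than in every ground library, as did 2.23% of all 16103 genes tested. They were ADCY4, ADCY7, ADCY9 and ADCY3, in falling order of the difference, and in ADCY6 the groups overlapped. Of the 9 genes other than ADCY4, none passed limma's test, with Benjamini-Hochberg adjustment over all 16103 genes, in any comparison.

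**Figure D1:**
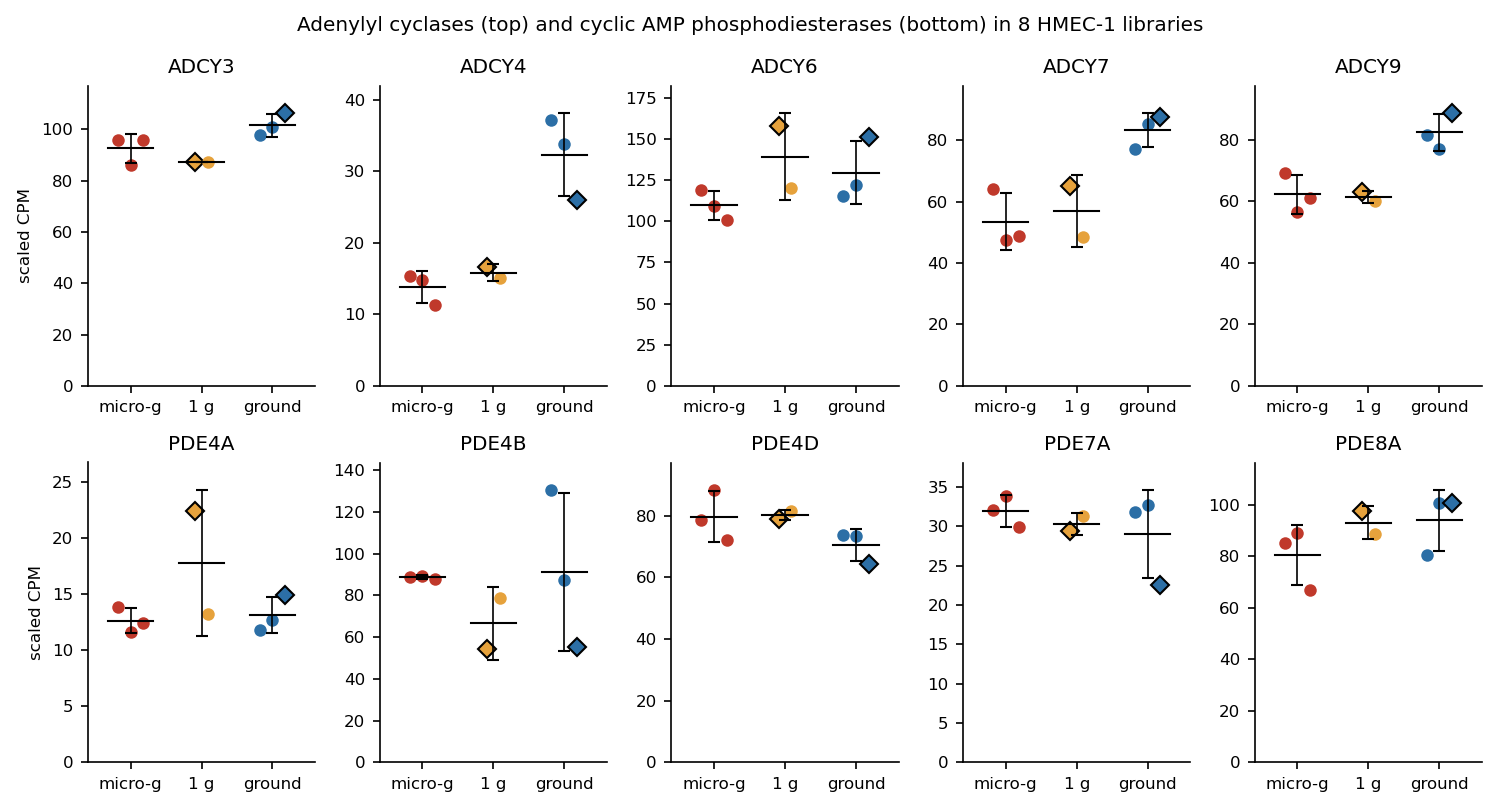
Scaled CPM of each of the 10 genes in each library, by group, with the mean and SD as bars; diamonds mark space_1g replicate 1 and ground replicate 3. In ADCY4 the 5 flight libraries sit between 11.3 and 16.6 CPM, all below the 3 ground libraries at 26.0 to 37.2 CPM.

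ADCY4, a cyclase stimulated by G protein beta-gamma subunits, had 15.4, 14.7 and 11.3 CPM in space_microg libraries and 16.6 and 15.0 CPM in space_1g libraries, against 37.2, 33.8 and 26.0 CPM in ground libraries. The highest flight library lay 9.31 CPM below the lowest ground library. The means were 13.8 ± 2.17 CPM in space_microg, 15.8 ± 1.14 CPM in space_1g and 32.3 ± 5.77 CPM on the ground. The log2 difference from ground was -1.16 ± 0.20 (SE) in space_microg and -0.97 ± 0.23 in space_1g, and the mean of all flight libraries was 54.7% below that of the ground libraries. These values rest on 338 to 1022 reads per library, at chr14:24318349-24335093 on the minus strand of GRCh38. In the annotation, 7.09% of its exon bases also lie in the protein-coding gene AL096870.1 on the same strand, where strand cannot tell reads apart. Per exon length, ADCY4 had the lowest mean level of the 5 cyclases.

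ADCY7, also stimulated by beta-gamma subunits, had 64.1, 47.5 and 48.8 CPM in space_microg libraries and 65.1 and 48.6 CPM in space_1g libraries, against 77.1, 85.3 and 87.5 CPM in ground libraries. All 5 flight libraries lay below the ground libraries, by at least 11.9 CPM. The log2 difference was -0.64 ± 0.18 for space_microg against ground (limma adjusted p = 0.866) and -0.56 ± 0.20 for space_1g against ground (limma adjusted p = 1.00). Without space_1g replicate 2 the space_1g difference was -0.35. In the annotation, 41.6% of the exon bases of ADCY7 overlap BRD7 on the opposite strand, and the sources used here do not give the strand setting of the counting, so reads of the pair may not be told apart. BRD7, a bromodomain protein, had 109 to 142 CPM, with a log2 difference of -0.07 ± 0.13 between both flight groups and ground.

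ADCY9, a widely expressed cyclase that responds poorly to the drug forskolin, had 69.0, 56.4 and 61.2 CPM in space_microg libraries and 62.8 and 59.9 CPM in space_1g libraries, against 81.6, 76.9 and 88.5 CPM in ground libraries. Here too the groups did not overlap, with a gap of 7.87 CPM. The log2 difference was -0.40 ± 0.14 for space_microg against ground (limma adjusted p = 0.866) and -0.42 ± 0.15 for space_1g against ground (limma adjusted p = 1.00).

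ADCY3, a calmodulin-regulated cyclase known from olfactory neurons and primary cilia, had 96.0, 86.2 and 96.0 CPM in space_microg libraries and 87.4 and 87.5 CPM in space_1g libraries, against 97.7, 101 and 106 CPM in ground libraries. Flight and ground were separated by 1.67 CPM only. The log2 difference was -0.13 ± 0.12 for space_microg and -0.21 ± 0.14 for space_1g against ground, and without space_microg replicate 2 the first value was -0.08. ADCY3 shares 26.0% of its exon bases with genes on the opposite strand, mainly CENPO, a kinetochore gene, whose flight libraries had 95.3 to 108 CPM and ground libraries 121 to 128 CPM.

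ADCY6, a cyclase inhibited by calcium, had 119, 109 and 101 CPM in space_microg libraries and 158 and 120.4 CPM in space_1g libraries, against 115, 122 and 151 CPM in ground libraries. Its highest values were in space_1g replicate 1 and ground replicate 3, the libraries that stood apart, both above the other 6. The log2 difference was -0.23 ± 0.17 for space_microg and 0.10 ± 0.19 for space_1g against ground, and without space_1g replicate 1 the second value was -0.09. With 1 library left out in turn, the first ran from -0.31 to -0.12 and was nearest to 0 without ground replicate 3.

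Non-overlap was counted against its background. Of all 16103 genes, 6.53% lay wholly lower in space_microg than on the ground, against 4 of the 10 genes here, and 7.88% lay wholly higher, against 0 of 10. For space_1g against ground the background was 5.73% lower and 4.94% higher, against 4 and 1 of 10. For all 5 flight libraries it was 2.23% lower and 1.57% higher, against 4 and 0 of 10. ADCY4 was known to be lower before it was counted, and the 3 comparisons share the ground libraries. By limma, 0 of 16103 genes passed in each comparison (0%). At an unadjusted p under 0.05 there were 696 genes for space_microg against ground, 249 for space_1g against ground and 460 for both flight groups against ground. In the same order, edgeR on the recovered reads called 0, 0 and 0 genes, with 741, 227 and 463 at an unadjusted p under 0.05, and DESeq2 called 3, 0 and 8, with 871, 327 and 596.

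**Figure D2:**
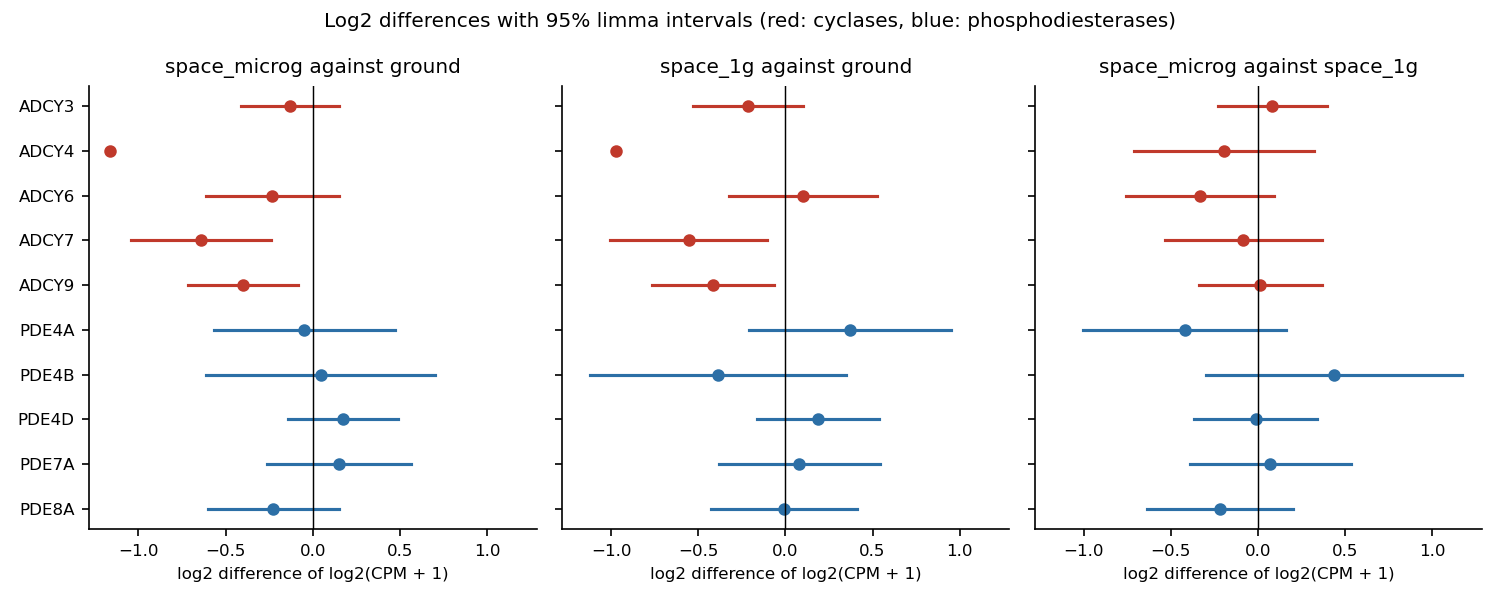
Log2 difference of each gene with its 95% interval from limma, not adjusted for the number of genes, in the 3 comparisons between pairs of groups; ADCY4 against ground is drawn as a value with no interval. ADCY4 lies farthest from 0, at -1.16 for space_microg against ground and -0.97 for space_1g against ground.

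Of the endothelial markers 13 of 14 had a log2 difference below 0 for both flight groups together against ground, beside 50.9% of all genes, with a median of -0.37. Flight lay wholly lower in 3 of 14, beside 2.23% of all genes, and these were TEK (-0.58 ± 0.17), KDR (-0.50 ± 0.18) and TIE1 (-0.41 ± 0.19), which encode endothelial receptor kinases. The summed markers overlapped, since space_microg replicate 1 had 2322 CPM and ground replicate 3 had 2286 CPM. Of the p53 targets 19 of 20 lay above 0, beside 49.1% of all genes, with a median of 0.35, and CCNG1 (0.61 ± 0.16) and ZMAT3 (0.74 ± 0.17), 2 of 20, lay wholly higher in flight, beside 1.57% of all genes. For space_microg alone 11 of 20 p53 targets lay above 0, with a median of 0.08, beside 7565 of all 16103 genes. For space_1g alone 20 of 20 did, with 0.59, beside 8246 of all genes. The space_1g libraries were far apart, with p53 sums of 9132 CPM in replicate 1 and 3101 CPM in replicate 2. The sums were 3576 to 4507 CPM in space_microg libraries, and 2170, 2180 and 7704 CPM in ground libraries. In bulk RNA, fewer cells of a type and less RNA per cell cannot be told apart. The part of either list in the cyclase values was not tested. The cyclases' longest transcripts have a GC content of 54.0% to 57.7%. Those of the phosphodiesterases have 40.3% to 44.8%, save PDE4A with 58.8%. With the GC content and length trend of each library removed, the space_microg against ground difference was -0.97 for ADCY4, -0.45 for ADCY7, -0.14 for ADCY9, -0.0015 for ADCY6 and 0.07 for ADCY3, which turned its sign. The space_1g against ground differences were -0.97, -0.55, -0.43, 0.10 and -0.22 in the same order. Without both libraries that stood apart, the both-flight differences were -1.25 for ADCY4, -0.67 for ADCY7, -0.37 for ADCY9 and -0.14 for ADCY3.

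**Figure D3:**
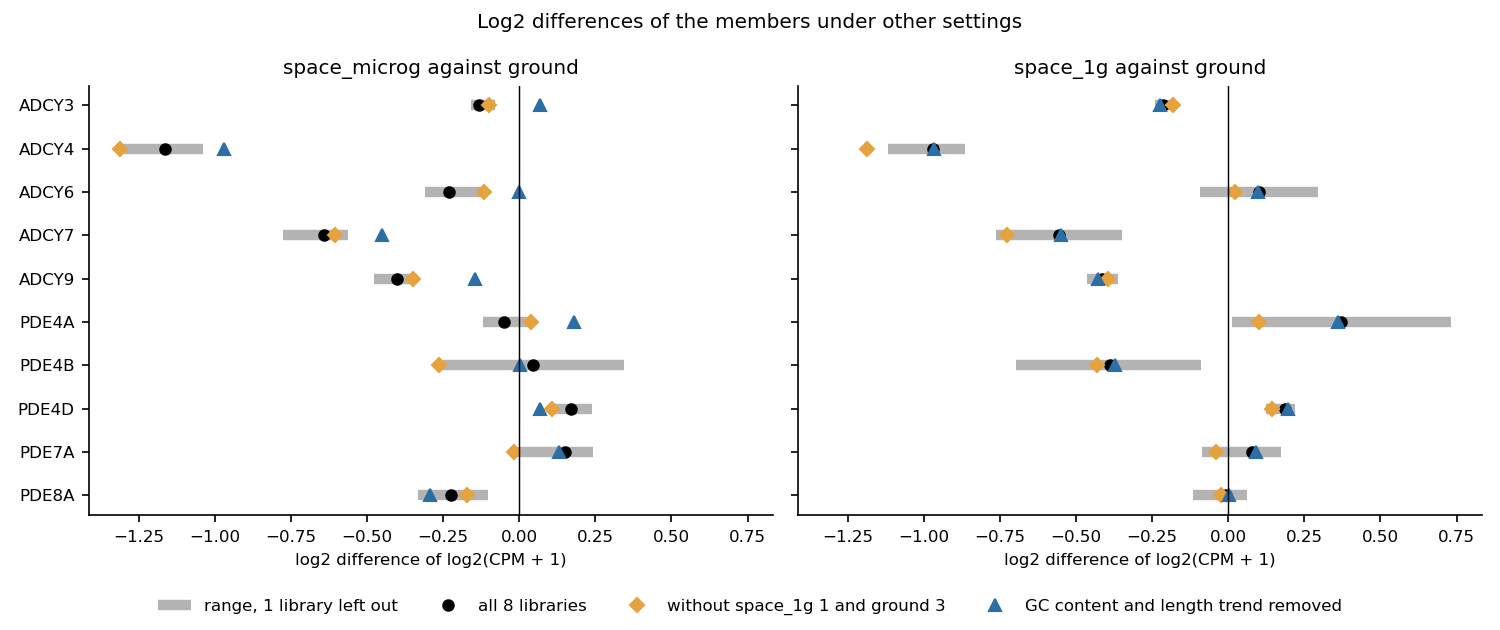
Log2 difference of each gene against ground, for space_microg and for space_1g, with all libraries, over the range with 1 library left out, without both libraries that stood apart, and with the GC and length trend removed. ADCY4, ADCY7 and ADCY9 stay below 0 under each of these, and ADCY3 turns to 0.07 for space_microg when the GC and length trend is removed.

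Among the phosphodiesterases no gene was separated between all flight and all ground libraries. PDE4B, a rolipram-sensitive enzyme known from inflammatory signalling, had 88.9, 89.4 and 87.8 CPM in space_microg libraries and 54.2 and 78.9 CPM in space_1g libraries, against 131, 87.3 and 55.4 CPM in ground libraries. The space_microg libraries lay within the range of the ground libraries, space_1g replicate 1 lay just below it, and its lowest values were in the libraries that stood apart, both below the other 6. The log2 difference was 0.05 ± 0.29 for space_microg and -0.39 ± 0.32 for space_1g against ground. For space_microg it was -0.27 without ground replicate 3 and 0.35 without ground replicate 1. For space_1g it was -0.70 without ground replicate 3 and -0.09 without ground replicate 1, and it was -0.12 without space_1g replicate 1 and -0.65 without space_1g replicate 2.

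PDE4D, an enzyme that anchoring proteins hold near protein kinase A, had 78.5, 88.5 and 72.3 CPM in space_microg libraries and 79.1 and 81.5 CPM in space_1g libraries, against 73.7, 73.6 and 64.5 CPM in ground libraries. Both space_1g libraries lay above all ground libraries, and 1 space_microg library lay within their range. The log2 difference was 0.17 ± 0.14 for space_microg against ground (limma adjusted p = 0.866) and 0.19 ± 0.15 for space_1g against ground (limma adjusted p = 1.00). With space_microg replicate 2 left out, the space_microg difference was 0.10, and leaving out ground replicate 3 gave 0.11 for space_microg and 0.12 for space_1g.

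PDE4A, another rolipram-sensitive enzyme and the gene with the CREB palindrome printed above, had 13.8, 11.6 and 12.4 CPM in space_microg libraries and 22.4 and 13.2 CPM in space_1g libraries, against 11.8, 12.7 and 14.9 CPM in ground libraries. The library space_1g replicate 1 was the highest, and without it the difference of space_1g from ground was 0.01 in place of 0.37 ± 0.25. Without space_1g replicate 2 it was 0.73. It rests on 318 to 688 reads per library.

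PDE7A, a rolipram-insensitive enzyme known from T cells, had 29.9 to 33.9 CPM in space_microg libraries and 29.4 and 31.3 CPM in space_1g libraries, against 31.8, 32.8 and 22.6 CPM in ground libraries. The log2 differences from ground, 0.15 ± 0.18 and 0.08 ± 0.20, came to -0.02 and -0.09 without ground replicate 3. PDE8A, a high-affinity enzyme also insensitive to rolipram, had 85.1, 89.0 and 67.1 CPM in space_microg libraries and 97.5 and 88.5 CPM in space_1g libraries, against 80.4, 101 and 101 CPM in ground libraries. Its groups overlapped, with log2 differences of -0.23 ± 0.16 for space_microg and -0.01 ± 0.18 for space_1g against ground. The first was -0.10 without space_microg replicate 3, and the second lay above 0 in 7 of 21 alternatives.

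The median log2 difference of both flight groups from ground was -0.41 over the 5 cyclases and 0.11 over the 5 phosphodiesterases, beside -0.004 over all 16103 genes. These medians describe the chosen genes only, and the classes differ in GC content. With the GC content and length trend removed, the both-flight differences were -0.97 for ADCY4, -0.50 for ADCY7, -0.29 for ADCY9, -0.08 for ADCY3 and 0.05 for ADCY6. For the phosphodiesterases they were 0.27 for PDE4A, 0.13 for PDE4D, 0.11 for PDE7A, -0.15 for PDE8A and -0.19 for PDE4B.

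To set genes side by side, CPM was divided by the length of the merged exons. Over the 8 libraries the cyclase levels were 15.6 ± 1.19 CPM per kb (SD, n = 8) for ADCY3, 14.8 ± 2.36 for ADCY6, 7.59 ± 1.91 for ADCY7, 6.71 ± 1.12 for ADCY9 and 2.64 ± 1.21 for ADCY4. ADCY3 and ADCY6 differed by less than their spread, as did ADCY7 and ADCY9. The phosphodiesterase levels were 11.2 ± 1.45 CPM per kb for PDE8A, 9.73 ± 2.76 for PDE4B, 4.69 ± 0.44 for PDE4D, 4.10 ± 0.47 for PDE7A and 2.12 ± 0.53 for PDE4A. PDE8A and PDE4B differed by less than the spread of PDE4B. These levels, and sums of them, depend on the length chosen. Per kb of the longest transcript, ADCY6 had 19.2 and ADCY3 18.8 CPM. By that length PDE8A had 19.0, PDE4B 18.5, PDE4D 9.29 and PDE7A 8.29 CPM per kb.

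The summed cyclase level was 42.2 ± 3.24 CPM per kb in space_microg and 45.4 ± 4.84 in space_1g, against 53.8 ± 3.25 on the ground. The flight libraries ran from 40.0 to 48.9 CPM per kb and the ground libraries from 51.2 to 57.4, without overlap. The sum holds ADCY4, ADCY7, ADCY9 and ADCY3, each wholly lower in flight, so it restates them and is no separate result. The summed phosphodiesterase level was 31.5 ± 2.28 CPM per kb in space_microg and 31.2 ± 0.53 in space_1g, against 32.7 ± 3.82 on the ground, and these ranges overlapped. ADCY4 made up 4.05% ± 0.57 of the summed cyclase level in space_microg and 4.33% ± 0.15 in space_1g, against 7.52% ± 1.74 on the ground. ADCY6 made up 30.8%, 36.2% and 28.5% in the same order of groups, and ADCY3 36.3%, 31.9% and 31.2%.

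**Figure D4:**
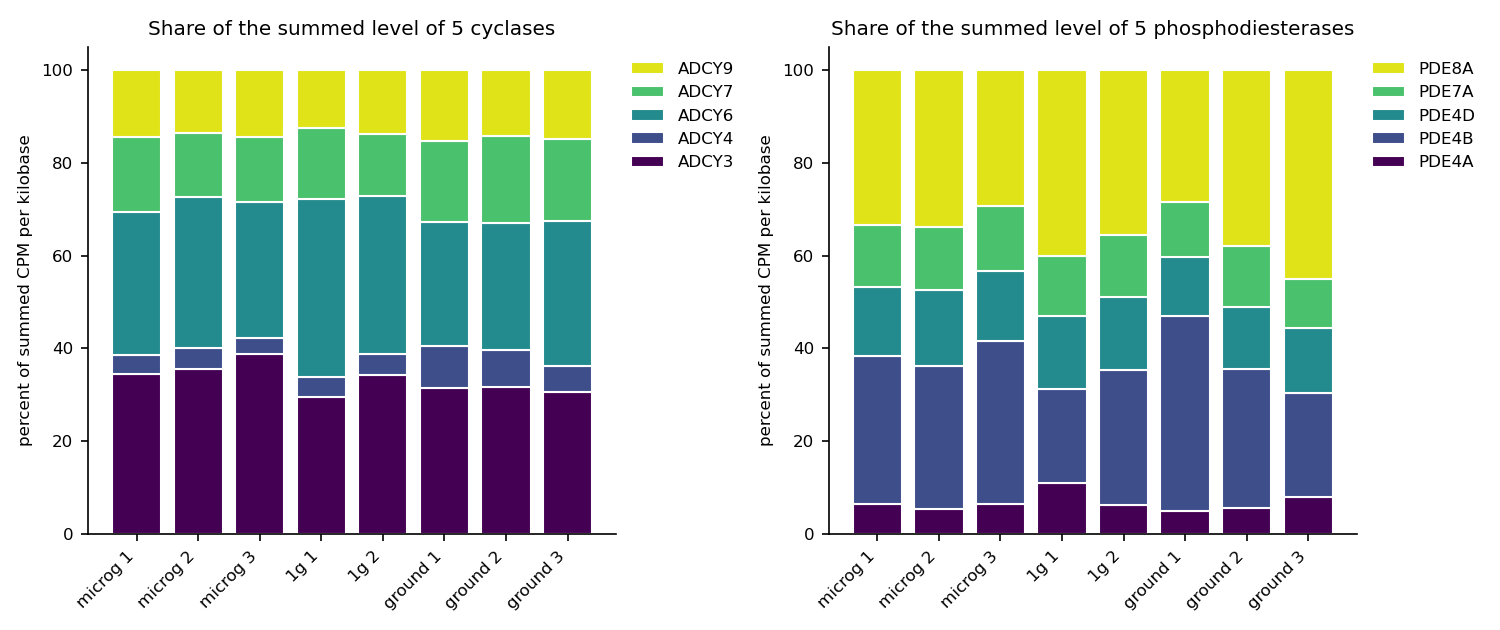
Share in percent of each cyclase and each phosphodiesterase in the summed CPM per kb of its class, stacked per library. ADCY4 is the smallest cyclase share in each group, at a mean of 4.05% in space_microg, 4.33% in space_1g and 7.52% on the ground.

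Weightlessness itself was compared in orbit, as space_microg against space_1g. ADCY4 differed by -0.19 ± 0.23 on the log2 scale, with a 95% interval of -0.71 to 0.32, ADCY7 by -0.08 ± 0.20 (-0.53 to 0.36) and ADCY9 by 0.01 ± 0.15 (-0.34 to 0.37). ADCY6 lay wholly lower in space_microg, with a log2 difference of -0.33 ± 0.19, and PDE4B wholly higher, with 0.43 ± 0.32. Against the background of 6.91% of genes lower and 7.24% higher, these were 1 and 1 of 10. The 10 adjusted p-values of limma were 0.912 to 0.990. Without space_1g replicate 1, which stood apart, the difference was -0.14 for ADCY6 and 0.17 for PDE4B. Limma called 0 of 16103 genes in this comparison (0%), with 212 at an unadjusted p under 0.05; edgeR and DESeq2 called 0, with 221 and 339.

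The other genes of the pathway are given by lists chosen for their role, for both flight groups against ground. No listed gene passed limma's test, so counts give signs of the log2 difference only. Of all genes tested, 49.1% had a difference above 0 and 50.9% below 0, and of the 10 genes 3 and 7. Upstream, 5 of 12 measured Gs-coupled receptors had a difference above 0 and 7 below, with 0.39 ± 0.21 for the adenosine receptor ADORA2B. Of 8 Gi-coupled receptors 3 were above and 5 below 0, with -0.71 ± 0.39 for the serotonin receptor HTR1B and -0.37 ± 0.19 for the sphingosine phosphate receptor S1PR1. Of 13 G protein subunits 9 were above and 4 below, with 0.30 ± 0.17 for GNG12. ADCY1, a further cyclase, was measured at 0.872 to 4.49 CPM, with a difference of -0.38 ± 0.37. Of 11 measured cyclic AMP phosphodiesterases, which include the 5 described above, 7 were above and 4 below 0. PDE8B had -0.52 ± 0.80, PDE4C had 0.29 ± 0.95, and PDE2A, which cyclic GMP stimulates, had -0.47 ± 0.23. In space_1g replicate 1 and ground replicate 3, PDE8B had 4.29 and 4.87 CPM, against 22.5 to 64.5 CPM in the other 6 libraries. PDE4C had 159 and 144 CPM in them, against 11.7 to 39.0 CPM in the other 6.

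Downstream, 6 of 7 protein kinase A subunits had a difference above 0, with 0.33 ± 0.24 for the catalytic subunit PRKACB and 0.24 ± 0.27 for the regulatory subunit PRKAR1B, whose groups overlapped. Another regulatory subunit, PRKAR2A, had 134, 129 and 138 CPM in space_microg libraries and 117 and 128 CPM in space_1g libraries, against 113, 103 and 113 CPM in ground libraries. Its flight libraries lay wholly above its ground libraries, with a log2 difference of 0.22 ± 0.11, as for 1 of the 7 subunits and 1.57% of all genes. Of 9 genes listed under EPAC and RAP1, 2 lay above and 7 below 0, with -0.41 ± 0.28 for RAPGEF3, which encodes the first EPAC. The 7 include RAP1GAP, SIPA1, RASIP1, RADIL and ARAP3, which encode neither EPAC nor RAP1. The count is therefore not one of EPAC and RAP1 alone. Above 0 were RAP1A and RAP1B, which encode RAP1 itself and whose groups overlapped. Their flight means were 46.2 and 114 CPM, against 39.7 and 102 CPM on the ground. Of 15 A-kinase anchors, which tether the kinase, 7 lay above and 8 below 0, with -0.48 ± 0.20 for AKAP12. Of 11 genes listed as CREB factors and coactivators, among them the kinases SIK1, SIK2 and SIK3, 2 lay above and 9 below 0. SIK1 is counted again among the CREB target genes, so these lists are not separate. The coactivators CRTC2 and CREBBP had -0.28 ± 0.20 and -0.27 ± 0.14, and the factor ATF1 had 0.23 ± 0.15. Of 17 CREB target genes 6 lay above and 11 below 0, with a median of -0.04, but the medians of the flight groups differed in sign. For space_microg alone 4 lay above and 13 below 0 (median -0.40), beside 7565 and 8538 of all genes. For space_1g alone 13 lay above and 4 below 0 (median 0.32), beside 8246 and 7857 of all genes. The space_1g group has 2 libraries, and 1 of them stood apart. In space_microg against space_1g 14 of 17 lay below 0, beside 8599 of 16103 genes. Wholly lower were 6 of 17, beside 6.91% of all genes. Among the target genes EGR1, an immediate early transcription factor, had 0.52 ± 0.24 for both flight groups. The EGF receptor ligand AREG had 1.09 ± 0.79, with 63.5 CPM in space_1g replicate 1 and 29.2 CPM in ground replicate 3, against 2.35 to 18.9 CPM in the other 6 libraries.

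**Figure D5:**
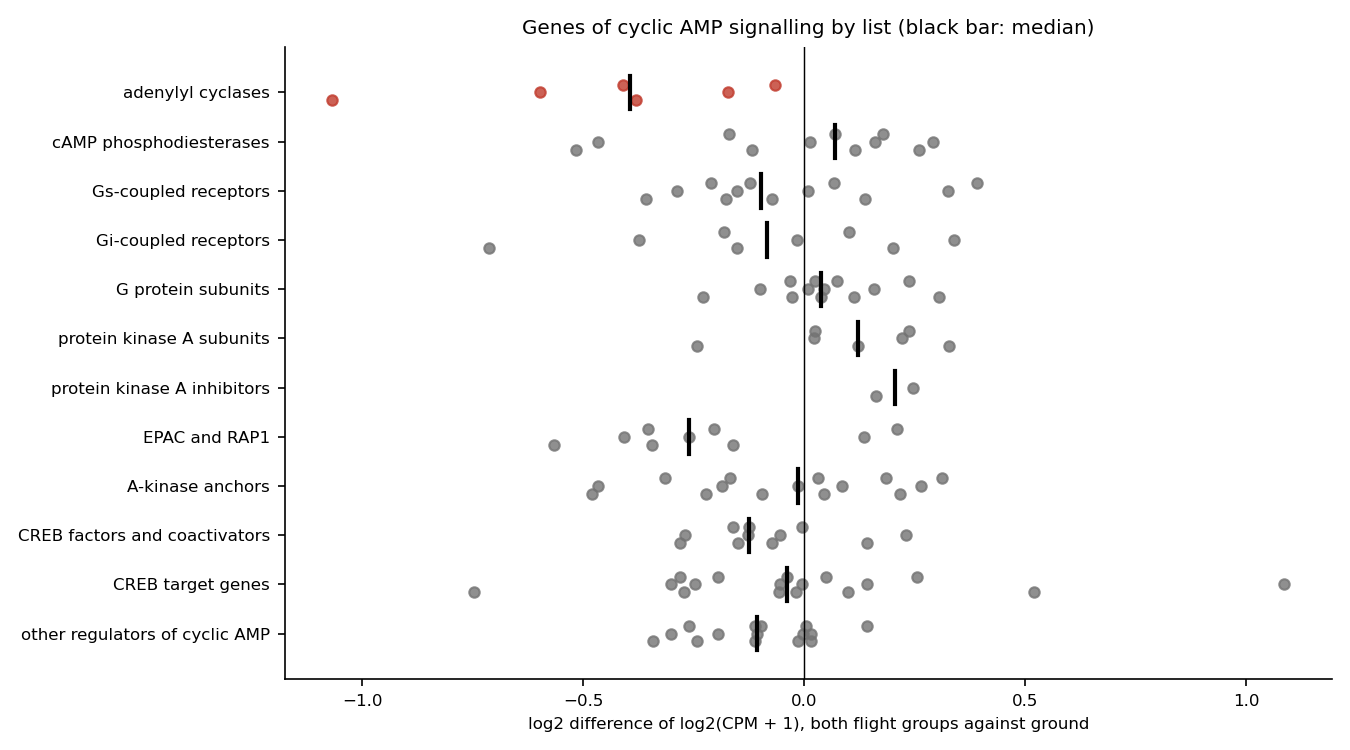
Log2 difference of both flight groups against ground for each measured gene of the pathway lists, 1 row per list, with the median as a bar. The cyclase list, which holds the 5 chosen cyclases and ADCY1, has all 6 measured genes below 0 with a median of -0.39. The phosphodiesterase list also holds the 5 chosen genes. The list of protein kinase A subunits has 6 of 7 above 0 with a median of 0.12.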

How the data were processed

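RNA was measured in 8 libraries made with a stranded total RNA kit and ribosomal RNA depletion, per the labels' protocols. The submitters' processing notes name edgeR, featureCounts, STAR 2.5.3, CASAVA 1.8.2 and FastQC, give no roles, and list GRCh38 and hg38 as builds. The deposited values are a signal for each gene that the labels call CPM, made from read counts by scaling for library size. In each column the value of 1 read divided 100% of values evenly, within a relative tolerance of 1e-06, so whole reads were recovered (24248964 to 35388757 per library). A count of 0 allows up to 3 reads, or 0.0855 to 0.12 CPM, which covers counting error only.

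The members and gene lists were chosen with earlier results of these data known. The main test was limma 3.58.1 (trended eBayes, R 4.3.3), two-sided, on log2(CPM + 1), fitted once to all 8 libraries without covariates. Genes that did not reach 1 CPM in 2 or more libraries were left out, and 16103 were tested. Differences are on the log2(CPM + 1) scale, which understates changes of low genes, and p-values were Benjamini-Hochberg adjusted over all genes at 0.05. Each comparison used the group means, and both flight groups against ground used the mean of the flight coefficients. The steps were also run on simulated data with the same spread for all genes and no library that stood apart. No result here rests on that run. From each list, genes were named from the 3 with the largest absolute difference, leaving out those whose mean was under 5 CPM, and not every such gene is named. The genes that overlap or adjoin a member were named outside this rule, after their values were seen. So were ADCY1, RAP1A, RAP1B, RAP1GAP, SIPA1, RADIL, KDR, TIE1, SIK1, SIK2 and SIK3.

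Alternatives were pseudocounts of 0.25 and 4, no filter or one of 5 CPM, quantile or median-of-ratios scaling, fits of only the groups compared, the replicate number as a block, edgeR 4.0.16 and DESeq2 1.42.0 on recovered reads, removal of the GC content and length trend per library (loess, span 0.5), and libraries left out. Positions, lengths and GC content are from GENCODE 29, in which 86.0% of symbols were found. Promoter sequences are from RefSeq, GRCh38.p14.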

Additional observations from a re-analysis of the deposited data

Results flagged for a closer look

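In PDE4B the libraries of the flight groups lay on different sides of the ground mean on the log2 scale, with all 3 space_microg libraries above it and both space_1g libraries below it. This rests on the scale, since on CPM the space_microg mean was 88.7 ± 0.85 (SD, n = 3), the space_1g mean 66.6 ± 17.5 (n = 2) and the ground mean 91.1 ± 37.7 (n = 3), so that both flight means lay below ground. The log2 difference of space_microg from ground, 0.05 ± 0.29 (SE), was -0.27 without ground replicate 3, -0.0056 by edgeR and -0.04 by DESeq2. The difference of space_microg from space_1g was 0.43 ± 0.32, with a limma adjusted p of 0.912, and 3 of 3 space_microg libraries lay above both space_1g libraries. Without space_1g replicate 1 it was 0.17.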

How the results depend on the processing

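Limma called 0 genes and 0 members in all 4 comparisons, and so did each alternative except DESeq2 on recovered reads. DESeq2 called 3 genes (1 higher, 2 lower) for space_microg against ground and 8 genes (4 higher, 4 lower) for both flight groups against ground, with 1 member in each; this was ADCY4, whose lower level was known beforehand, and the cause was not tested. With 1 library left out in turn the counts ranged from 0 to 0. Over all alternatives and comparisons, 794 member differences moved by less than the spread between replicates and 36 by more. Part of the 794 was fixed in advance. Changes of filter, fits of only the groups compared, and leaving out a library of a group not compared keep a difference unchanged. So does the replicate block for space_microg against ground. Sign turns under a scaling occurred for PDE8A in space_1g against ground, whose difference was -0.01. The labels tie the replicate numbers to no shared culture or day, and the numbers did not pair the samples throughout: deviations of same-numbered libraries correlated at -0.397, 0.556 and 0.0505 between space_microg and ground, -0.678 and 0.601 between space_1g and ground, and 0.679 and 0.205 between space_microg and space_1g, and 3 of 8 libraries correlated best with their own number. The replicate block gave 0 calls in each comparison. Without 1 of the space_1g libraries, the remaining one was taken to vary as much as libraries of the other groups do. The comparison of both flight groups with ground uses all 3 groups, so a fit of only the groups compared was not a separate setting there. With the longest transcript in place of merged exons, ADCY4's share of the summed cyclase level was 4.80% in space_microg and 5.10% in space_1g, against 8.79% on the ground. Groups of 2 or 3 libraries limit the precision of each value.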

Other observations

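The nearest genes to ADCY4 on chromosome 14 were LTB4R, a leukotriene receptor gene 313 bases away, and RIPK3, a necroptosis kinase gene 928 bases away. LTB4R had 18.7, 14.1 and 9.26 CPM in space_microg libraries and 30.7 and 14.7 CPM in space_1g libraries, against 16.9, 15.2 and 30.7 CPM in ground libraries. Its highest values were in the libraries that stood apart, and its groups overlapped, with a log2 difference of -0.22 ± 0.34 for both flight groups against ground. RIPK3 had 0.613 to 1.04 CPM in flight libraries, against 1.01 to 1.99 CPM in ground libraries, with -0.38 ± 0.21.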
